A study of Mus musculus with 6 samples.

Results

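Genes of the interferon response and of class I antigen presentation were followed in mouse beta cells, which make insulin in the pancreatic islet. The list held 37 genes chosen by symbol, of which 36 had a row in the deposited expression table and 29 had a mean of at least 1 FPKM (fragments per kilobase of transcript, adjusted for the fragments mapped) over the 6 libraries. They were 29 of 11131 genes at that level and of 23087 genes in all. The 29 comprised 9 of 10 antigen presentation genes and 20 of 27 interferon-induced genes. The 20 were 7 sensors and transcription factors, 3 immunity-related GTPases and 10 effectors. Of the genes around the limit, Mx1 (1.22 FPKM) and Rtp4 (1.80) were just inside it and Xaf1 (0.882), Isg15 (0.874) and Cxcl10 (0.802) just outside. All 29 kept a mean of at least 1 FPKM without their highest library. The other 7 genes of the list with a row were Nlrc5, Isg15, Xaf1, Cxcl10, Iigp1, Ifit2 and Ifi44, and no row carried the symbol Ifi27.

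Islets of chow-fed females with a mixed 129J-C57BL/6 background gave the cells, which were isolated by fluorescence-activated sorting. Wild-type (WT) mice stood against IKO mice, whose floxed FoxO1 was excised by a Cre transgene under the rat insulin promoter (RIP-Cre). The stages were 3 months without pregnancy, 12 months without pregnancy (both nulliparous) and 12 months with 3 pregnancies (multiparous), and values of 3 stages follow in that order. The multiparous WT library was titled NGT and the multiparous IKO library DM, so whatever these titles mark cannot be told apart from genotype between the multiparous libraries, or from parity within a genotype. Each of the 6 groups held 1 library, the labels give no number of animals per library and no Cre or floxed allele for WT mice, and no difference between 2 libraries has a replicate behind it. Foxo1 itself had 5.67, 7.62 and 8.93 FPKM in WT, against 0.410, 0.410 and 0.656 in IKO.

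Interferons are cytokines, and those of type I are released by cells on sensing viral nucleic acid. Type I interferons signal through the receptor chains IFNAR1 and IFNAR2 and the kinases JAK1 and TYK2 to transcription factors that include STAT2 and IRF9 and act at interferon-stimulated response elements. Interferon gamma has a receptor of its own and acts mainly at gamma-activated sites. Class I molecules, a heavy chain paired with beta-2-microglobulin, show peptides cut by the proteasome to CD8 T cells. In islets, raised class I and interferon-induced genes are a known feature of autoimmune diabetes, in which T cells kill beta cells.

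The promoters below are those of the genes on which the results turn most, beside strongly interferon-responsive genes for comparison. They run from 250 bases before to 50 bases after the start given by RefSeq (GRCm38.p6, the assembly of mm10), 5′ to 3′ along the gene. Capitals mark an interferon-stimulated response element, searched on both strands as GAAA, any 2 bases and GAAA again, where elements may overlap. A gamma-activated site was searched as TTC, any 3 bases and GAA, and none of the 5 windows shown held one. Irf7 is the transcription factor that amplifies type I interferon production, and its window held neither motif.
Irf7, chr7:141266375-141266674, minus strand: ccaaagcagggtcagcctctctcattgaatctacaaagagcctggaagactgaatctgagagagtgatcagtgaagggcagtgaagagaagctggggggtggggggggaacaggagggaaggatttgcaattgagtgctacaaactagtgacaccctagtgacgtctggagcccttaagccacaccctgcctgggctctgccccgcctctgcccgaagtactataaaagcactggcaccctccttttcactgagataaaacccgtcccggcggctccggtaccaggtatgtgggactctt
B2m, chr2:122147437-122147736, plus strand: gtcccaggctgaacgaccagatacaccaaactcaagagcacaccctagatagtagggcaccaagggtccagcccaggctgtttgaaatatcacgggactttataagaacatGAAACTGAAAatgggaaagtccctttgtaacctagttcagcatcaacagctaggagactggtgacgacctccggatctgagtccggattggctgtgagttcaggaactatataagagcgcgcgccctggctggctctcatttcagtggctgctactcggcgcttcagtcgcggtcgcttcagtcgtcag
Ifit3, chr19:34583279-34583578, plus strand: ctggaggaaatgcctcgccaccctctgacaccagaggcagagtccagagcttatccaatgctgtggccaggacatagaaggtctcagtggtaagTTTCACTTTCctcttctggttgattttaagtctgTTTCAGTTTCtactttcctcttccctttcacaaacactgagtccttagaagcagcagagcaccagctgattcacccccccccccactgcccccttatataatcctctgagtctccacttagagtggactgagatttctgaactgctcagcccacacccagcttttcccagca
Isg15, chr4:156200769-156201068, minus strand: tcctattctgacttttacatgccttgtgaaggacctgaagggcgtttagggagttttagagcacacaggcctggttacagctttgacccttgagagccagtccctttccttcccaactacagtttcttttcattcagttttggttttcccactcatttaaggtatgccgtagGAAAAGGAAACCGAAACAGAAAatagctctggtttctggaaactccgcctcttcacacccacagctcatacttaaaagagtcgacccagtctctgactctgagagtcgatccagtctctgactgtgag
Tap1, chr17:34187306-34187605, plus strand: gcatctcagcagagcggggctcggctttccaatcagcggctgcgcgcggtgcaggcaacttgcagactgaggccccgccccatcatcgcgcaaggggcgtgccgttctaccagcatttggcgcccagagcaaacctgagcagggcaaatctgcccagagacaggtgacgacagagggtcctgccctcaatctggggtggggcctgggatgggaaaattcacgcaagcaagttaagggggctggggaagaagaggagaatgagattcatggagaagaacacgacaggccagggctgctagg

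B2m had 1 element, starting 139 bases before the gene start. Ifit3 had 2, at 156 and 122 bases before it, and Isg15 had 3 overlapping ones between 78 and 66 bases before it. Of the 37 genes, 29 had a promoter in the RefSeq table. The response element was found in 13 of 21 interferon-induced genes (61.9%) and in B2m alone of 8 antigen presentation genes, against 3.99% of all 27025 genes with a promoter and 3.48% of the 8311 of them with a mean of at least 1 FPKM. The gamma-activated site was found in 7 of the 21 and in Psmb8 alone of the 8, against 9.55% of all genes. A match describes letters in a window and shows no binding.

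Of the 10 antigen presentation genes, 7 were on chromosome 17, within the major histocompatibility complex, while B2m lay on chromosome 2 and Psmb10 and Nlrc5 on chromosome 8. Psmb9 (34182099 to 34187330, mm10) and Tap1 (34187556 to 34197225) were 225 bases apart and are read in opposite directions, so that their promoter windows share 275 bases and the Tap1 window printed above nearly covers that of Psmb9. Psmb8 (34198195 to 34201454) followed 969 bases after Tap1, and Tap2 (34204479 to 34216321) 3024 bases after Psmb8. Ifit2, Ifit3 and Ifit1 formed a cluster on chromosome 19.

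Class I genes were far above the rest of the list. H2-K1, a class I heavy chain (chromosome 17, 33996012 to 34000333), had 247, 280 and 260 FPKM in the WT libraries and 258, 298 and 270 in the IKO libraries. Its highest library was 1.2 times its lowest, the smallest range of the 29 genes together with Tap1. H2-D1, the other heavy chain (chromosome 17, 35263094 to 35267497), had 264, 246 and 254 FPKM in WT libraries and 270, 213 and 313 in IKO libraries. By mean FPKM these 2 genes ranked 93 and 101 of 11131, in the top 0.836% and 0.907%. B2m, the shared light chain, ranked 517, and Tapbp, which encodes the peptide loading factor tapasin, ranked 701. Tap1, a subunit of the peptide transporter, was much lower at 4.08 to 4.91 FPKM, and Nlrc5, the class I transactivator, was at 0.439 to 0.668.

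Most effectors with a row under their listed symbol were low in all libraries. Ifi27l1, the row that RefSeq ties to Ifi27, was at 59.6 to 75.2 FPKM and is not counted. Of the effectors under their listed symbol, Ifi35 had the highest level at 11.1 to 19.3 FPKM, followed by Bst2, the membrane tether tetherin, at 6.24 to 9.12. Among the regulators Irf1, a transcription factor induced by interferon gamma, was highest at 23 to 32.3 FPKM. Isg15, the ubiquitin-like modifier, reached at most 1.4 FPKM, and Cxcl10, a chemokine that draws T cells, at most 1.18. Iigp1, Ifit2 and Ifi44 stayed at or below 0.230 FPKM in all 6 libraries.

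Some values rest on reads that several genes share. In the longest coding transcript of each gene in GENCODE M21, windows of 100 bases, the read length, were matched exactly to transcripts of other genes. Oas1a shared 40.9% of its windows with Oas1g and Ifit3 shared 31.7% with Ifit3b, so their FPKM values are uncertain. Rtp4 shared 11.2%, Igtp 5.67%, H2-D1 4.64%, Ifit1 3.29% and Irgm2 2.48%. Irf7, B2m, Rsad2 and H2-K1 shared none with another gene of the reference strain.

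**Figure D1:**
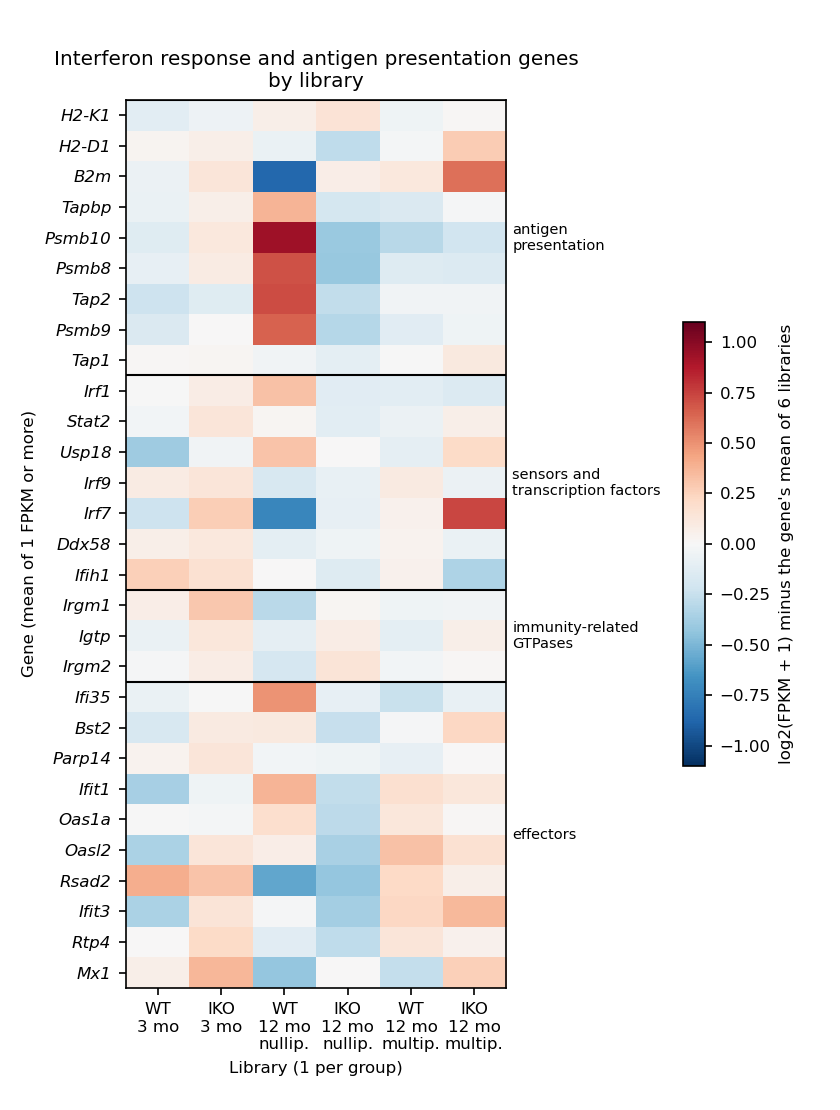
Expression of the 29 genes whose mean reached 1 FPKM in the 6 libraries, as log2(FPKM + 1) minus the mean of that gene over the libraries. Rows are grouped by role and ordered by mean within a role. In the 12-month nulliparous WT column, Psmb8, Psmb9, Psmb10 and Tap2 are high and B2m and Irf7 low, and Irf7 and B2m are highest in the multiparous IKO column.

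The 12-month nulliparous WT library stood apart. Pearson's r over the genes lay between 0.955 and 0.961 for this library with any other, and between 0.982 and 0.993 within the remaining 5, as a description. It held the lowest value of 43.5% and the highest of 32.4% of all genes at that mean level. Of the 29 genes it held the highest value of 10 and the lowest of 8. It enters the fits over all libraries and the pairs that name it. Summed acinar markers were at 73.3 FPKM there and at 3.71 to 26.6 elsewhere, summed endothelial markers at 10.1 and at 4.16 to 4.53, and summed alpha cell markers at 922 and at 181 to 662.

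Irf7 (chromosome 7, 141263183 to 141266424, minus strand) was higher in the IKO library at each stage. WT libraries had 3.70, 2.35 and 4.69 FPKM and IKO libraries 5.64, 4.17 and 8.16, which is 1.52, 1.77 and 1.74 times as high. The multiparous IKO library had the highest value of all 6, and the genotypes overlapped across stages, since the multiparous WT library was above the 12-month nulliparous IKO library. In an additive fit of genotype and stage over all genes (limma), the log2 difference was 0.60 (SE 0.09, higher in 3 of 3 stages). Its unadjusted p of 0.00141 was the 5th smallest of 11131, and its limma adjusted p was 0.923.

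Mx1, a dynamin-like antiviral GTPase, had the same order within each stage at lower levels. WT libraries had 1.28, 0.619 and 0.812 FPKM and IKO libraries 1.81, 1.18 and 1.61. Its log2 difference was 0.42 (SE 0.09, higher in 3 of 3 stages, limma adjusted p = 0.923). B2m (chromosome 2, 122147687 to 122153082) had 83.5, 47.8 and 94.9 FPKM in the 3 WT libraries and 96.3, 91.9 and 134 in the IKO ones, with a log2 difference of 0.54 (SE 0.16, limma adjusted p = 0.923). The middle pair of B2m includes the WT library that stood apart, in which B2m was lowest. Without that library 24 of 29 genes were above 0 in the fit (48% of all genes), and the log2 difference was 0.59 for Irf7, 0.41 for Mx1 and 0.35 for B2m.

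Limma called 0 of the 29 genes for genotype and 0% of all genes. At an unadjusted p under 0.05, Irf7, Mx1 and B2m were higher, and 0 genes of the list were lower, against 0.88% and 0.737% of all genes. Of the 29, 7 were higher in IKO at all 3 stages, against 13.4% of all genes, and these were Irf7, Mx1, B2m, H2-K1 and the 3 immunity-related GTPases Igtp, Irgm1 and Irgm2, which act against intracellular pathogens. The sensor of double-stranded RNA Ifih1 and the oligoadenylate synthetase Oas1a were lower at all 3 stages, against 9.81% of all genes.

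**Figure D2:**
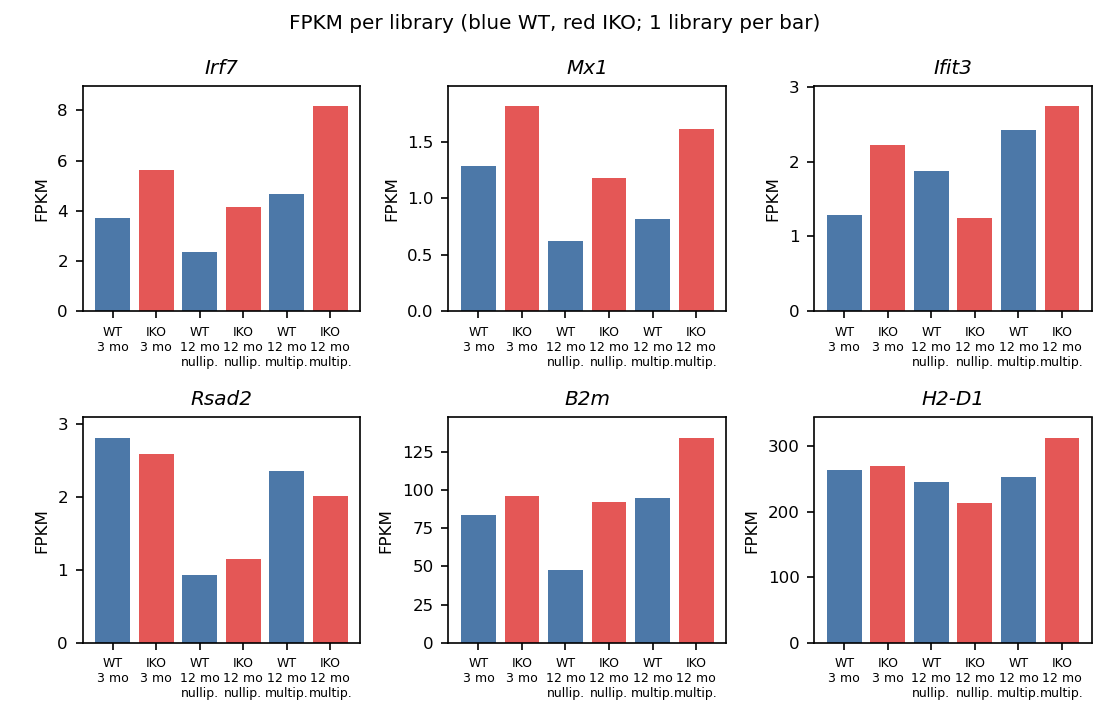
FPKM of 6 genes in each library, with WT in blue and IKO in red and each axis starting at 0. Irf7 and Mx1 are higher in IKO within each stage, Ifit3 is low in WT at 3 months and in IKO at 12 months nulliparous, and Rsad2 is lowest in both 12-month nulliparous libraries.

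At 3 months most of the list was slightly higher without FoxO1. The log2 ratio of FPKM + 1 (IKO over WT) was above 0 for 26 of 29 genes, against 53.5% of all genes, and its median was 0.16 against 0.01 for all genes. Antigen presentation genes were above 0 in 9 of 9 (8 of 9 after rescaling without the 20 highest genes, where 45.2% of all genes were above 0) with a median of 0.14, and interferon-induced genes in 17 of 20 with a median of 0.18. On the scale of FPKM + 1 the largest ratios after Irf7 were those of Ifit3, a partner of the RNA-binding protein Ifit1, with 2.22 FPKM against 1.29, and of Oasl2, with 2.70 against 1.65. As plain FPKM ratios these were 1.72 and 1.64, above the 1.52 of Irf7. Usp18, the protease that removes Isg15 and dampens the interferon receptor, was at 9.0 and 6.84. A 1.5-fold ratio on the FPKM + 1 scale was counted only where 1 of both libraries had at least 5 FPKM, and all shares past a fold refer to the genes that reached this level in the pair. Of the 29 genes 17 reached it and 0 were past 1.5-fold, against 0.148% of 8114 such genes higher and 0.173% lower. Summed acinar markers were at 13.3 FPKM in IKO and 6.81 in WT at this stage, and summed class II genes at 5.66 and 4.97. Summed leukocyte markers were at 26.2 and 30, with Ptprc at 0.0637 and 0.0477 and S100a9 at 1.94 and 6.28. The part of these in the small shift was not tested.

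In the multiparous pair, 19 of 29 genes were higher in IKO (44.4% of all genes were), with a median log2 ratio of 0.08 against -0.02. Of the 16 that reached 5 FPKM, Irf7 was the 1 gene past 1.5-fold, against 0.417% of 8163 such genes higher and 0.404% lower, and none was past 2-fold higher (0.098%). The antigen presentation genes were above 0 in 8 of 9 (7 of 9 after rescaling without the 20 highest genes) with a median of 0.10, led by B2m and by H2-D1, with 313 FPKM against 254. The interferon-induced genes were split, with 11 of 20 above 0 (44.4% of all genes) and a median of 0.02. Among genes with a mean of 5 FPKM or more their median was 0.14 and that of the antigen presentation genes 0.09. Usp18 was at 10.9 and 8.59 FPKM, while Ifih1 was at 1.39 and 2.13 and Rsad2, the antiviral enzyme viperin, at 2.01 and 2.35. Effectors were above 0 in 5 of 10.

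With age, the IKO libraries were lower for nearly the whole list. From 3 to 12 months nulliparous, 26 of 29 genes had a log2 ratio below 0, against 43.8% of all genes. The count was again 26 after rescaling by the median ratio (49.9% of all genes) and without the 20 highest genes (45.6%). The median was -0.26, against 0.02 for all genes, both for the antigen presentation genes (8 of 9 below 0) and for the interferon-induced genes (18 of 20). All 10 effectors were lower. Rsad2 was at 2.59 FPKM at 3 months and 1.15 at 12 months, Ifit3 at 2.22 and 1.25, Oasl2 at 2.70 and 1.63, and Rtp4 at 2.22 and 1.3. Of the immunoproteasome subunits, Psmb10 was at 27.2 and 18.6 and Psmb8 at 23.9 and 16.5. H2-K1 went the other way at 258 and 298, as did Irgm2 and Usp18 by less. Of the 17 that reached 5 FPKM, 0 were past 1.5-fold, against 0.707% of 8209 such genes higher and 0.512% lower.

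After 3 pregnancies, most of the list was higher in IKO than at 12 months nulliparous, in a pair that shares its nulliparous library with the age comparison. Of 29 genes, 22 had a log2 ratio above 0 (43.9% of all genes did), with a median of 0.22 against -0.02. All 10 effectors were higher, with a median of 0.36, as were 8 of 9 antigen presentation genes, with a median of 0.22. Of the 7 sensors and transcription factors 4 were above 0, with a median of 0.02. The interferon-induced genes together were above 0 in 14 of 20, with a median of 0.20. Among genes with a mean of 5 FPKM or more their median was 0.02 and that of the antigen presentation genes 0.24. Irf7 was at 8.16 FPKM against 4.17 and was the 1 gene past 1.5-fold of 16 that reached 5 FPKM, against 1.1% of 8209 such genes higher and 1.02% lower. None was past 2-fold higher (0.207%). Ifit3 was at 2.74 against 1.25, Rsad2 at 2.01 against 1.15, Oasl2 at 2.78 against 1.63 and Bst2 at 9.12 against 6.24. B2m was at 134 against 91.9 FPKM and H2-D1 at 313 against 213, while H2-K1 was at 270 against 298. The 3 immunity-related GTPases were all slightly lower, with log2 ratios of -0.01 to -0.13.

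The 12-month nulliparous IKO library, which both of these pairs use, held the lowest of the 6 values for 13 of 29 genes, against 10.7% of all genes, and for 7 of 9 antigen presentation genes. The count was 14 (14.9% of all genes) after rescaling by the median ratio and 11 (8.62%) after rescaling without the 20 highest genes. Summed acinar markers were at 13.3 FPKM in IKO at 3 months, 26.6 at 12 months nulliparous and 3.71 after pregnancies, and summed leukocyte markers were at 26.2, 25.7 and 22.3. That sum is carried by C1qa, Cd68 and S100a9. Within IKO, Ptprc (0.0637, 0.196 and 0.101 FPKM) and Cd52 (0.473, 1.80 and 0.437) were highest at 12 months nulliparous. So were Coro1a (0.257, 0.562 and 0.251), Laptm5 (0.184, 0.357 and 0.205), Lyz2 (0.293, 0.538 and 0.331) and Fcer1g (1.26, 1.69 and 0.727). The same held for C1qc, Cd79a, Ms4a1, Itgam and Cd3e, all under 1 FPKM. It did not hold for C1qa (13, 9.94 and 6.83), Cd68 (7.04, 5.9 and 7.01) and S100a9 (1.94, 2.63 and 3.94). Nor did it hold for the remaining markers with a row, Tyrobp, C1qb, Csf1r, Cd3g, Cd8a, Cd79b and S100a8. Over all 6 libraries, Ptprc was highest in multiparous WT (0.234) and Coro1a in 12-month nulliparous WT (1.25). Summed alpha cell markers were at 414, 353 and 181, and summed beta cell markers at 475, 507 and 360. The part of these in the result was not tested.

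**Figure D3:**
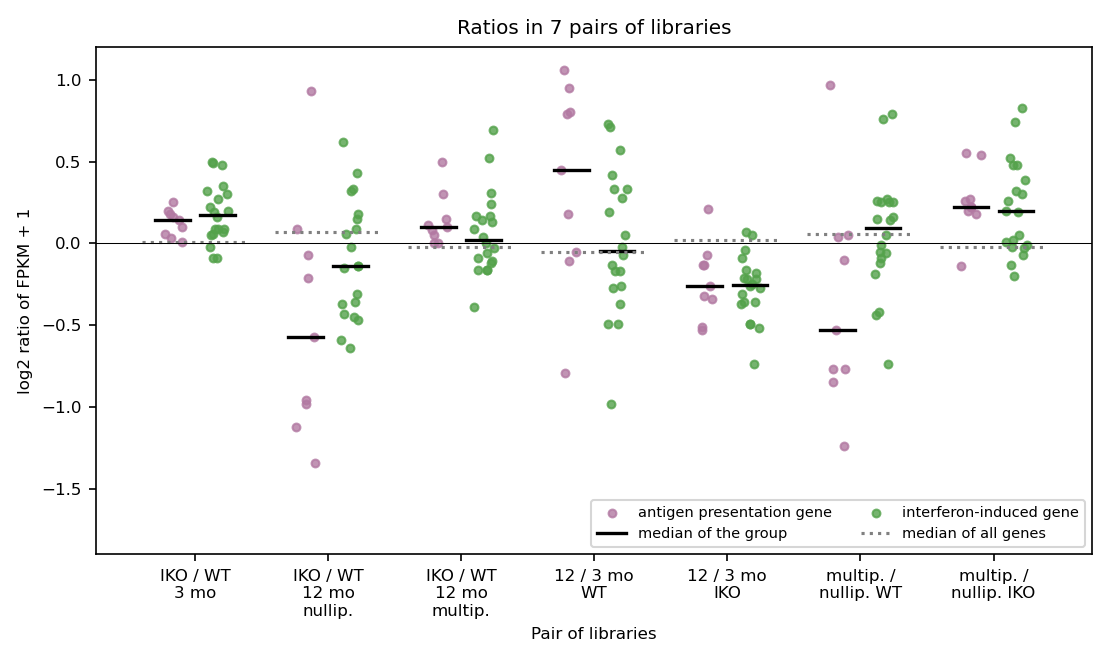
Log2 ratio of FPKM + 1 in 7 pairs of libraries for each of 9 antigen presentation genes and 20 interferon-induced genes, with black lines at the median of each group and dotted lines at the median of all genes. Both groups lie mostly below 0 for 12 over 3 months in IKO and mostly above 0 for multiparous over nulliparous IKO. The 3 pairs that use the 12-month nulliparous WT library have the widest spread.

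Rsad2 was low in both nulliparous 12-month libraries. In WT it stood at 2.81 FPKM at 3 months, 0.936 at 12 months nulliparous and 2.35 after pregnancies, and in IKO at 2.59, 1.15 and 2.01. These 2 nulliparous 12-month libraries held its lowest values, and the share of all genes with such an order was not counted. The WT one is the library that stood apart, which held the lowest value of 43.5% of all genes. Over both genotypes its log2 difference was -0.86 (SE 0.13, limma adjusted p = 0.605) for age and 0.64 (SE 0.13, limma adjusted p = 0.427) for parity. For Irf7 these were -0.43 (SE 0.11, limma adjusted p = 0.74) and 0.79 (SE 0.11, limma adjusted p = 0.334), with the same direction in 2 of 2 genotypes for both genes. The 2 contrasts share the 12-month nulliparous libraries.

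Limma called 0 of the 29 genes for age and 0 for parity, against 0.00898% of all genes called higher and 0.018% lower for age and 0.027% higher and 0% lower for parity. At an unadjusted p under 0.05, Rsad2, Irf7 and Mx1 were lower with age (2.04% of all genes, with 2.29% higher) and Irf7, Rsad2 and B2m higher with parity (3.99%, with 3.41% lower). Without the 12-month nulliparous WT library, the log2 difference for parity was 0.78 for Irf7, 0.50 for Rsad2, 0.49 for Bst2 and 0.47 for B2m. In that fit the nulliparous side at 12 months is 1 library, assumed to vary like the others. That library is fitted exactly, so the residual spread is only how the genotype difference varied between the other 2 stages. It measures no spread between nulliparous and multiparous libraries, and no p-value of that fit is given here.

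In the WT pairs, the 12-month nulliparous library set most differences. Psmb8, Psmb9 and Psmb10 encode the catalytic subunits of the immunoproteasome, which replace those of the constitutive proteasome under interferon. Psmb10 was at 48.6 FPKM in this library and at 18.6 to 27.2 in the other 5, Psmb8 at 37.1 and at 16.5 to 23.9, and Psmb9 at 16.2 and at 7.82 to 10. Tap2, the second transporter subunit, was at 36.6 and at 18.0 to 21.2. B2m was at 47.8, below its 83.5 to 134 elsewhere. The library thus lay outside the range of the other 5 in opposite directions for genes of the same pathway.

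Between IKO and WT at 12 months nulliparous, 5 of the 15 genes that reached 5 FPKM were past 1.5-fold lower (10.6% of 8349 such genes) and B2m was past it higher (7.43%). The 5 were Psmb8, Psmb9, Psmb10, Tap2 and Ifi35, of which 2 were past 2-fold (3.23%). From 3 to 12 months in WT, the same 4 antigen presentation genes and Usp18 were past 1.5-fold higher (5 of 15 genes, against 11.2% of 8310) and B2m lower (6.25%), with 1 gene past 2-fold higher (3.51%). Between multiparous and nulliparous WT, Psmb8, Psmb9, Psmb10, Tap2 and Ifi35 were past it lower (5 of 15 genes, against 11.8% of 8356) and B2m higher (8.27%), with 1 gene past 2-fold lower (3.59%). These 3 pairs share that library, and their splits moved with scaling. The log2 ratio was above 0 for 10 of 29 genes in the genotype pair (57.3% of all genes), for 15 with age (45%) and for 14 with parity (55.7%). After rescaling without the 20 highest genes these were 13 (70.2%), 13 (29.7%) and 20 (68.8%), and the median of all genes went from 0.07, -0.05 and 0.06 to 0.22, -0.22 and 0.21. Irf7, although 1.99 times as high in the multiparous as in the nulliparous WT library (4.69 and 2.35 FPKM), had less than 5 FPKM in both and was not counted.

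Most genes of the constitutive proteasome were also high in that library. Of 14 of its subunit genes, 11 had their highest value there (32.4% of all genes did) and 2 their lowest (43.5%). Psmb5, the constitutive counterpart of Psmb8, was at 122 FPKM there and at 45.6 to 53.0 in the others, and the ratio of Psmb8 to Psmb5 was 0.305 there and 0.362 to 0.455 elsewhere. The ratio of Psmb10 to Psmb7 was highest there, at 0.299 against 0.175 to 0.259, and that of Psmb9 to Psmb6 was 0.122 against 0.084 to 0.106. The immunoproteasome was thus not uniformly raised relative to its counterparts there, and in the other 5 libraries Psmb8 relative to Psmb5 was highest at 3 months in IKO.

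**Figure D4:**
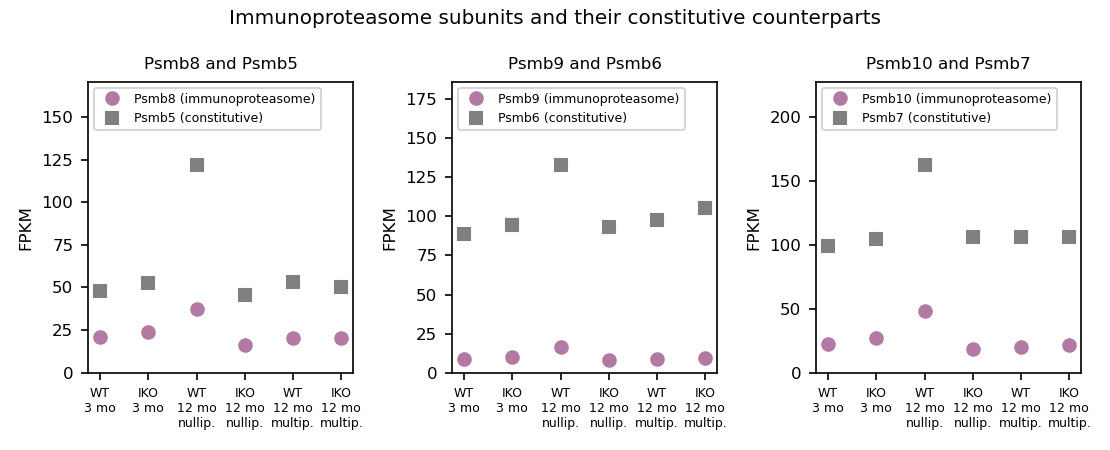
FPKM of the 3 immunoproteasome subunits (circles) and of their constitutive counterparts (squares) in each library, with axes starting at 0. Both kinds of subunit are highest in the 12-month nulliparous WT library for all 3 pairs.

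Upstream of the list, most receptors and signalling genes were detected. Of 21 receptor and signalling genes, 16 had a mean of at least 1 FPKM. The most abundant were Stat3 (80.0 to 89.5 FPKM), Jak1 (26.0 to 34.3) and Socs3 (21.4 to 30.3), a feedback inhibitor of cytokine signalling. Both interferon receptors were detected, with Ifnar2 at 15.1 to 19.4 FPKM and Ifngr1 at 4.17 to 9.76. In the IKO pairs 8 of 16 were below 0 with age (43.8% of all genes) and 10 of 16 above 0 with parity (43.9%). No gene of these was past 1.5-fold in either pair, against 0.707% and 1.1% higher and 0.512% and 1.02% lower of the genes that reached 5 FPKM. The interferon gamma receptor chain Ifngr2 was at 4.74 FPKM in nulliparous and 6.83 in multiparous IKO, and at 4.30 and 6.44 in WT. Irf5, Irf8 and Tmem173, which encodes STING, were at most 0.185 FPKM in any library.

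A second list of 41 interferon-induced genes, of which 24 had a mean of at least 1 FPKM, was followed beside the first. At 3 months 22 of 24 were higher in IKO (53.5% of all genes), with a median log2 ratio of 0.07. With age in IKO 17 of 24 were lower (43.8%), with a median of -0.12. With parity in IKO, however, 11 of 24 were higher (43.9%), with a median of -0.04, so this list did not share the higher values of the first in the multiparous IKO library. Its most abundant genes were Lgals3bp, at 255 FPKM in multiparous and 223 in nulliparous IKO, and the exonuclease gene Isg20, at 145 and 100. Ifitm2, of a family of membrane proteins that restrict virus entry, had 14.1, 14 and 12.4 FPKM in the IKO libraries and 13.3, 5.18 and 7.46 in the WT ones.

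Of the other class I genes, 15 of 16 had a mean of at least 1 FPKM, and 10 of 15 were higher in multiparous than in nulliparous IKO (43.9% of all genes). Calr, the chaperone calreticulin that also serves protein folding at large, was at 862 and 595 FPKM, and the class I gene H2-Q6, a close relative of H2-D1, at 8.47 and 4.41. H2-Q6 was the 1 gene of these past 1.5-fold, of 13 that reached 5 FPKM (1.1% of 8209 such genes). Psme1, an activator of the proteasome that interferon induces, was at 49.4 and 45.8.

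Markers of other cells bear on where these transcripts could come from, since in a sorted population RNA of a few immune cells would add to class I and interferon-induced genes. Beta cell transcription factors were detected in all libraries, with Mafa at 46.7 to 102, Pdx1 at 51.1 to 66.4 and Nkx6-1 at 69.8 to 106 FPKM, while Ins1, Ins2 and Iapp were listed at 0 in all 6. With parity Mafa was lower in both genotypes, at 50.3 against 88.5 FPKM in IKO and 46.7 against 102 in WT. Of 22 leukocyte markers, 21 had a row and 4 a mean of at least 1 FPKM, namely C1qa, Cd68, S100a9 and Fcer1g. The summed level of the 21 was 22.3 to 30 FPKM, but it did not move with the pan-leukocyte gene Ptprc, at 0.0477 to 0.234, which was lowest in the 3-month WT library, where the sum was highest. C1qb and C1qc were at most 0.248 FPKM beside C1qa at 6.83 to 15.4. The T cell gene Cd3e was at 0.0129 to 0.0984 FPKM. The part of leukocytes in the results was not tested. Class II genes, which antigen-presenting cells carry, summed to 4.97 to 10.3 FPKM, at 7.96 in nulliparous and 6.46 in multiparous IKO at 12 months. Fewer or more cells of a type and less or more RNA per cell cannot be told apart in such bulk libraries.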

How the data were processed

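Sorted beta cells gave 6 RNA libraries. The authors deposited FPKM values per gene and library. The library kit kept strand and selected poly-A RNA, with paired reads of 100 bases, per the labels' protocols. TopHat, Cufflinks, Cuffdiff and the build mm10 are named, without versions, per the submitters' processing notes. Read counts were not used here, so depth is unknown, and FPKM summed to 268006 to 316023 per library.

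Of 23845 rows, 758 with 260 symbols that occur at several loci were dropped, and 23087 genes remained. Positions are those of the table in mm10, with 1 added to starts. No ratio was formed with a value of 0. Log2 ratios used FPKM + 1, which understates differences of low genes. A gene counted as past the fold at 1.5-fold or more on that scale with at least 5 FPKM in 1 of both libraries. These ratios have no test.

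One model gave a test. Genotype and stage entered limma 3.58.1 (R 4.3.3) as additive terms on log2(FPKM + 1), for 11131 genes whose mean reached 1 FPKM. Moderation used a trend, 2 residual degrees of freedom remained, and adjustment followed Benjamini-Hochberg over all genes at 0.05. With 1 library per group, the residual spread is how far the genotype difference varied between stages. Such p-values and SEs rest only on that spread, of the gene itself and, through moderation, of all genes tested. It may be biological or technical. The code was tested on simulated data. Alternatives were other pseudocounts, filters, folds and scalings, no trend, and each library left out. The genes and lists were chosen with earlier results of these data known. Named genes were those past 1.5-fold, those of smallest limma p, and the most abundant of each role, and others were added after their values were seen.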

Additional observations from a re-analysis of the deposited data

How the results depend on the processing

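No paired analysis was possible because each group held 1 library and the labels give no replicate numbers. The number of genes past 1.5-fold at 3 months (0) was 1 at a pseudocount of 0.1 and 1 at 1.3-fold. In the multiparous genotype pair (1) it was 0 with a mean FPKM of at least 5 or at 2-fold, and 2 at 1.3-fold. For parity in IKO (1) it was 0 with a mean of at least 5 or at 2-fold, 4 at 1.3-fold and 2 with a minimum of 1 FPKM. For age in IKO (0) it was 2 at 1.3-fold and 1 with a minimum of 1 FPKM. At 2-fold it was 2 for genotype at 12 months nulliparous and 1 each for age and parity in WT. With 1 library left out, the genes called by limma ranged from 0 to 16 for age and from 0 to 11 for parity. The highest counts came without the 12-month nulliparous IKO library, where limma called 54.3% and 56.8% of all genes, with the WT library that stood apart alone on the nulliparous side at 12 months. The genotype log2 difference of Rsad2 (-0.03) ranged from -0.12 to 0.03. That of Irf7 ranged from 0.56 to 0.73 over the alternatives that kept it (a mean of at least 5 removes it). Depth is unknown, and genes of 1 to 3 FPKM such as Mx1, Ifit3 and Rsad2 rest on low values.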

Other observations

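Ifi27l1 (chromosome 12, 103434189 to 103440245), which RefSeq lists under the current symbol Ifi27, had a row of its own and was not counted above. WT libraries had 69.2, 73.7 and 67.7 FPKM and IKO libraries 75.2, 59.6 and 73.3. Its lowest value was in the 12-month nulliparous IKO library.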
